A study of Arabidopsis thaliana with 12 samples.

Results

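Type-A response regulators (type-A ARRs) are a family of small *Arabidopsis* proteins that act in the response to the plant hormone cytokinin. They were taken here as the L*er* loci whose listed homologs in Col (the Columbia reference accession) include *ARR3* (AT1G59940), *ARR4* (AT1G10470), *ARR5* (AT3G48100), *ARR6* (AT5G62920), *ARR7* (AT1G19050), *ARR8* (AT2G41310), *ARR9* (AT3G57040), *ARR15* (AT1G74890), *ARR16* (AT2G40670) or *ARR17* (AT3G56380). Of 27147 L*er* loci in the tables, 11 list at least 1 of these genes and 10 were paired with a member, 1 locus for each of the 10 genes.

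In the cytokinin pathway, the hormone binds histidine kinase receptors (AHKs), which pass a phosphate to phosphotransfer proteins (AHPs) and from there to the response regulators. Type-B response regulators are transcription factors that activate cytokinin target genes, and the type-A genes are among those targets. Type-A proteins consist mainly of the receiver domain that takes up the phosphate, do not bind DNA, and act as negative regulators of the same pathway, so that a rise in their transcripts is widely used as a readout of cytokinin response. In tissue culture, the balance of auxin and cytokinin in the medium decides whether callus or shoots form, and type-B proteins activate *WUSCHEL* (*WUS*), the gene that sets up the shoot meristem.

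RNA-seq was performed on 4 groups of L*er* tissue with 3 libraries each, which are *dme-2* de novo shoots, WT de novo shoots, *dme-2* calli and WT calli. The allele *dme-2*, given in the sample labels as dme-2/-, affects *DEMETER* (*DME*), a DNA demethylase gene. All explants were true leaves of seedlings. Calli formed in darkness on callus-inducing medium (CIM), which held the auxin 2,4-D and the cytokinin kinetin, and were taken after 7 days (DAC7). Shoots were taken after 14 days (DAS14) on shoot-inducing medium (SIM), which held the auxin 3-indoleacetic acid and the cytokinin 2-isopentenyl adenine, under long days. Cytokinin was thus present at both stages, but as different compounds, and its doses are not compared here. Medium, light, time and tissue cannot be told apart in a comparison of shoots with calli.

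For each locus and library the tables give a whole-number count and the relative abundance in TPM, which is adjusted for transcript length. Total counts were 12981250 to 20128757 in the 9 libraries whose counts were used and depth is not known from the TPM. The TPM of *DME* itself was 7.89, 7.49 and 7.89 in *dme-2* shoots against 19.44, 18.94 and 18.65 in WT shoots. In *dme-2* calli it was 3.21, 3.14 and 3.54, against 13.17, 11.21 and 10.11 in WT calli. The count columns labelled *dme-2* callus go against the TPM columns of the same name. Over 13420 loci the median deviation between the 2 tables, on the log2 scale, was 0.869 to 1.06 in those 3 columns and 0.0303 to 0.0782 in the other 9. Counts were therefore used only for shoots and WT calli, and every comparison with *dme-2* calli was made from TPM. Summed TPM of 7 green leaf genes was 27757 to 29989 in *dme-2* shoots, 36838 to 38436 in WT shoots, 79.8 to 150 in *dme-2* calli and 144 to 200 in WT calli, so the shoot libraries held green tissue as labelled. Summed TPM of 9 genes of callus and root founder tissue was 16.1 to 17.6 in *dme-2* shoots, 19.9 to 22.2 in WT shoots, 86.7 to 124 in *dme-2* calli and 100 to 125 in WT calli. Most of the sum in shoots was *SCR*, which was higher in shoots than in calli. Its TPM was 12.28 to 14.79 in *dme-2* shoots, 16.86 to 18.04 in WT shoots, 4.91 to 8.9 in *dme-2* calli and 4.31 to 8.06 in WT calli.

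Where a locus lists several homologs, the match of its 20 neighbouring loci to the neighbours of the Col gene decided. The locus paired with *ARR5* (ATLER-3G66510, chromosome 3) and the one paired with *ARR6* (ATLER-5G82890, chromosome 5) each list both genes as homologs, and 20 of 20 neighbours matched in each case. The 2 genes are close copies, so how the quantification divided reads between them is uncertain. Of 2 loci that list *ARR8*, ATLER-2G61300 had 20 of 20 matching neighbours. The other, ATLER-2G19260, had 0 of 20 and was listed at 0 in all 12 TPM columns, and was left unpaired. The remaining 7 members (*ARR3* ATLER-1G72610, *ARR4* ATLER-1G20740, *ARR7* ATLER-1G30340, *ARR9* ATLER-3G76460, *ARR15* ATLER-1G89060, *ARR16* ATLER-2G60560 and *ARR17* ATLER-3G75770) each had 1 listed homolog and 19 or 20 matching neighbours.

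Transcripts of the family were most abundant in *dme-2* shoots. The TPM summed over the 10 genes was 309 ± 22.9 in *dme-2* shoots, 203 ± 5.64 in WT shoots, 62.6 ± 10.5 in *dme-2* calli and 62.3 ± 7.92 in WT calli (SD, n = 3 each). The lowest *dme-2* shoot library (282.27 TPM) lay above the highest WT shoot library (206.38 TPM), while the calli of both genotypes overlapped, at 50.55 to 69.15 TPM in *dme-2* and 55.77 to 71.09 TPM in WT. These are bulk samples, in which fewer cells of a type and less RNA per cell cannot be told apart.

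**Figure D1:**
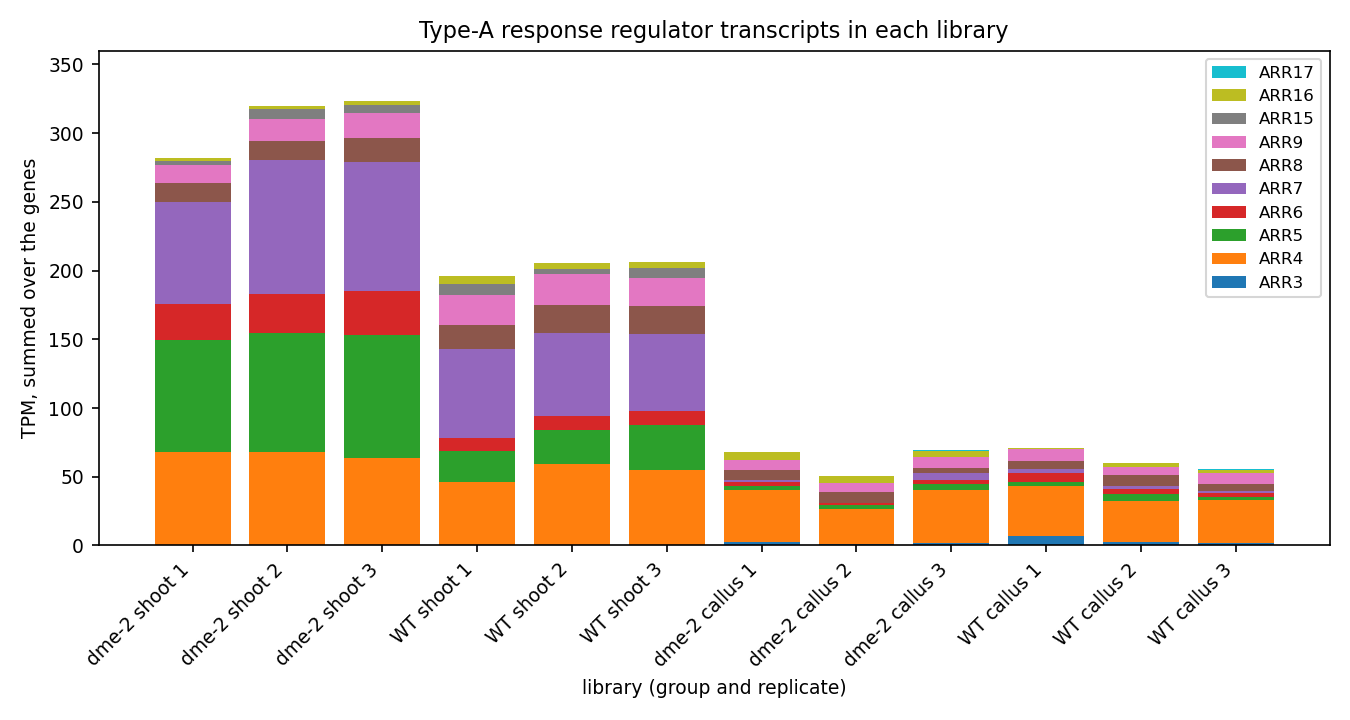
Stacked bars give the TPM of each type-A response regulator in each of the 12 libraries, by group and replicate, with the summed TPM as the height of the bar. The 3 *dme-2* shoot libraries sum to 282.27 to 323.7 TPM, the 3 WT shoot libraries to 196.37 to 206.38 TPM, and the 6 callus libraries to 50.55 to 71.09 TPM, most of it *ARR4*.

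The members that made up this sum differed between the groups. In *dme-2* shoots *ARR7* and *ARR5* led with overlapping levels, followed by *ARR4*, then *ARR6*, then *ARR9* and *ARR8*, which overlapped, then *ARR15* and *ARR16*. In WT shoots *ARR7* and *ARR4* led and overlapped, *ARR5* and *ARR9* overlapped below them, and *ARR8*, *ARR6* and then *ARR15* and *ARR16*, which overlapped, came next. In both kinds of calli *ARR4* led without overlap, and *ARR9* and *ARR8* came next and overlapped. *ARR4* made up 53.9% of the summed TPM in *dme-2* calli and 52.2% in WT calli, but 21.6% in *dme-2* shoots and 26.2% in WT shoots. *ARR5* made up 27.9% in *dme-2* shoots, 13.3% in WT shoots, 4.91% in *dme-2* calli and 5.74% in WT calli. The share of *ARR8* and *ARR9* together was 9.87% in *dme-2* shoots and 20.3% in WT shoots, against 22.1% in *dme-2* calli and 22.8% in WT calli.

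**Figure D2:**
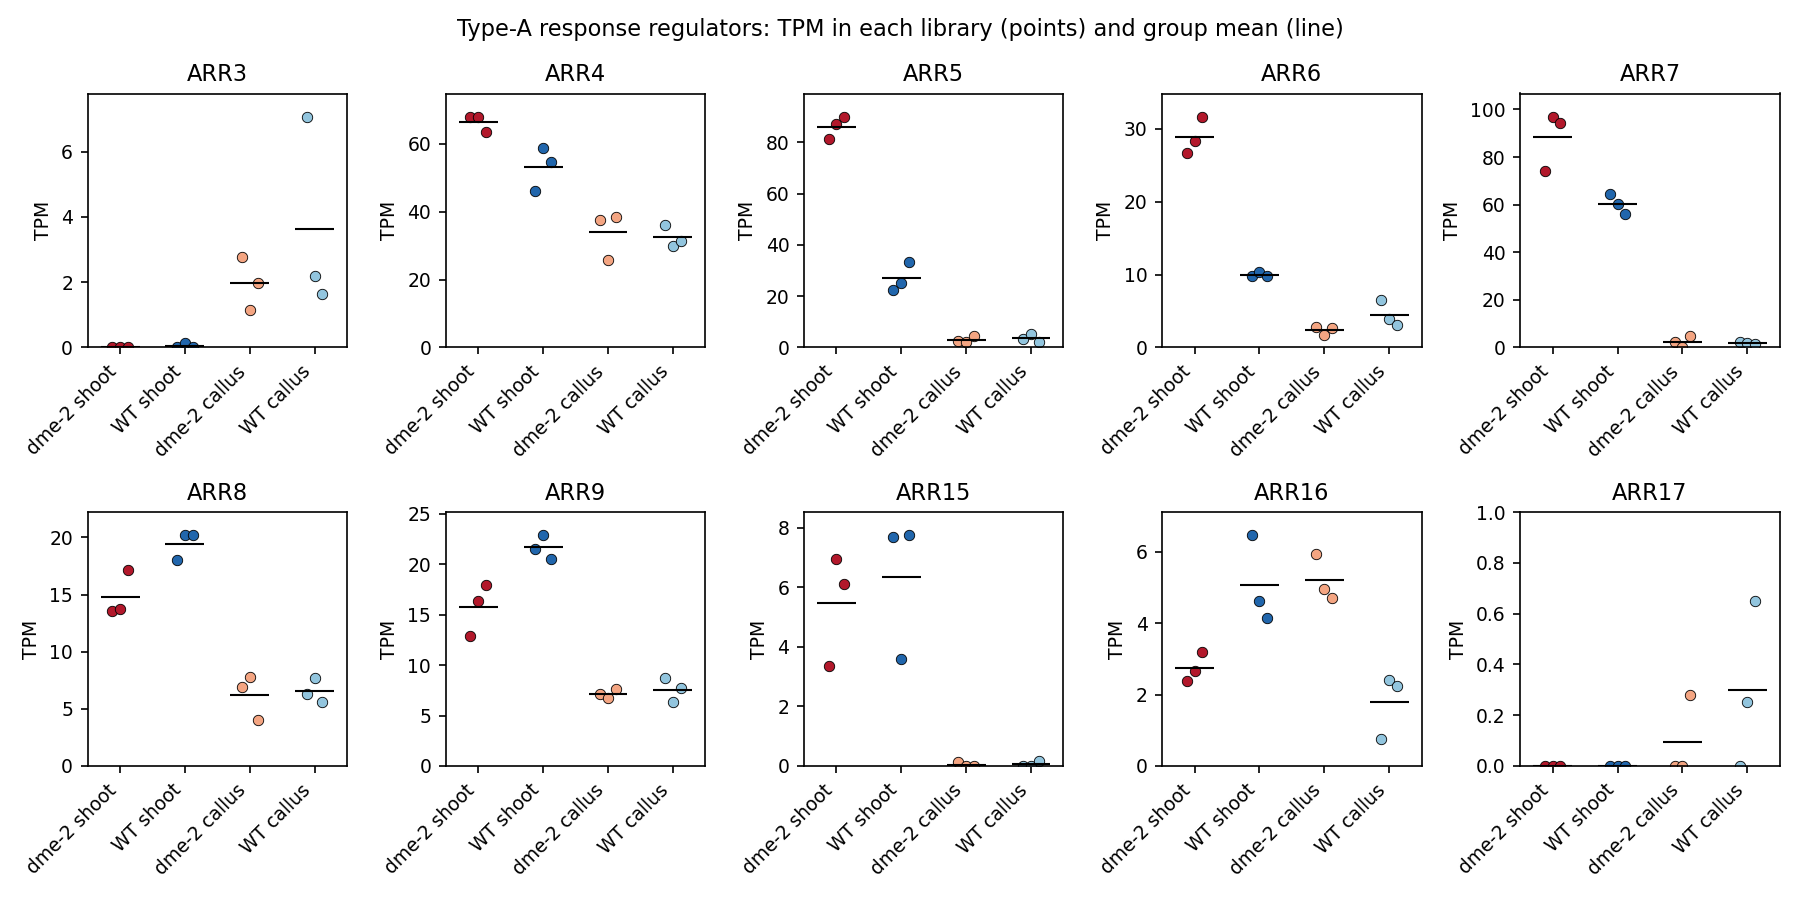
Each panel shows 1 gene, with TPM on a linear axis of its own, a point for each of the 3 libraries of a group and a line at the group mean. *ARR5* and *ARR6* lie between 81.26 and 89.98 TPM and between 26.73 and 31.7 TPM in *dme-2* shoots, above every library of the other 3 groups, while *ARR3* and *ARR17* are listed at or near 0 in shoots.

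The first comparison asks which type-A genes differ between *dme-2* and WT in regenerated shoots. *ARR5* and *ARR6* rose most, *ARR7* and *ARR4* rose by smaller amounts, *ARR9* fell, and the other members did not pass the test. By edgeR's quasi-likelihood test on counts, 4 of the 8 members tested were higher in *dme-2* shoots and 1 was lower at an adjusted p under 0.05. Of all 19114 loci tested, 52.8% passed in either direction, 26.7% higher and 26.1% lower, so a call alone was common in this comparison. The median log2 fold change was 0.07 over the 8 members and −0.004 over all loci. *ARR3* and *ARR17* had too few counts in shoots to be tested. The calls of *ARR4*, *ARR7* and *ARR9* depend on the fit, since each was made in 14 of 15 alternatives and lost in 1. In a limma fit of log2(TPM + 1) over all 12 libraries, chosen after the data were seen, in which shoots share one spread with the calli, the adjusted p was 0.189 for *ARR4*, 0.44 for *ARR7* and 0.0511 for *ARR9*, and 2997 of 18813 loci passed. In that fit *ARR5* (adjusted p = 0.000974) and *ARR6* (0.000959) were the members that passed.

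*ARR5* and *ARR6* form a pair of close copies that cytokinin induces within minutes, and the *ARR5* promoter is a standard reporter of cytokinin response. The TPM of *ARR5* was 81.26, 87.02 and 89.98 in *dme-2* shoots, against 22.55, 25.2 and 33.25 TPM in WT shoots. The corresponding counts were 1089, 1131 and 1187 in *dme-2* and 310, 348 and 411 in WT. The groups were far apart, with the lowest *dme-2* library well above the highest WT library. *ARR5* rose by 1.60 on the log2 scale (standard error 0.0763, adjusted p = 9.81e-15 by edgeR), which is 3.03-fold. Of the loci tested, 294 (1.54%) had a larger rise than *ARR5*. When any library was left out, the log2 fold change was 1.54 to 1.67.

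*ARR6* reached 26.73, 28.41 and 31.7 TPM in the *dme-2* shoots, against 9.82, 10.3 and 9.77 TPM in WT shoots, again without overlap. It rose by 1.35 on the log2 scale (standard error 0.1, adjusted p = 4.28e-11 by edgeR), or 2.55-fold, and 442 loci (2.31%) had a larger rise. The ratio of *ARR5* to *ARR6* TPM was 2.84 to 3.06 in *dme-2* shoots and 2.30 to 3.40 in WT shoots. Within the pair the ratio thus overlapped between the genotypes while both levels differed.

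*ARR7* and *ARR15* form the next pair and are known as inhibitors of cytokinin response in the shoot meristem, where WUS represses them. *ARR7* had 74.15, 96.99 and 94.19 TPM in *dme-2* shoots, against 64.29, 60.07 and 56.01 TPM in WT shoots. Every *dme-2* library exceeded every WT library, although the *dme-2* libraries varied more among themselves. The rise was 0.51 on the log2 scale (standard error 0.0754, adjusted p = 3.8e-06 by edgeR), or 1.42-fold. *ARR15*, its copy, stood at 3.35, 6.97 and 6.1 TPM in *dme-2* shoots, against 7.7, 3.61 and 7.76 TPM in WT shoots. These values overlapped, and the log2 fold change of −0.22 did not pass the test (standard error 0.234, adjusted p = 0.446 by edgeR). The ratio of *ARR7* to *ARR5* TPM was 0.913 to 1.12 in *dme-2* shoots and 1.69 to 2.85 in WT shoots, since *ARR5* rose more than *ARR7*.

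*ARR4*, which is also known to bind the light receptor phytochrome B, had 67.96, 67.89 and 63.4 TPM in *dme-2* shoots, against 45.97, 58.8 and 54.7 TPM in WT shoots. The groups did not overlap, but the lowest *dme-2* library was close to the highest WT library. *ARR4* rose by 0.36 on the log2 scale (standard error 0.0601, adjusted p = 1.92e-05 by edgeR), or 1.28-fold. *ARR3*, its copy, had 0 counts in all 3 *dme-2* shoot libraries and 0, 1 and 0 counts in WT shoots, so no difference was detectable at this depth.

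*ARR8* and *ARR9* are a pair that responds only weakly to cytokinin in seedlings. *ARR9* had 12.91, 16.33 and 17.94 TPM in *dme-2* shoots, against 21.57, 22.9 and 20.56 TPM in WT shoots. Every *dme-2* library was below every WT library, and edgeR gave a log2 fold change of −0.41 with a standard error of 0.111 and an adjusted p = 0.00297. *ARR8* stood at 13.53, 13.7 and 17.19 TPM in *dme-2* shoots, against 18.01, 20.21 and 20.2 TPM in WT shoots. Its groups did not overlap in TPM either, but from the counts the log2 fold change was −0.24 and did not pass the test (standard error 0.104, adjusted p = 0.0606 by edgeR). The adjusted p was 0.0114 without *dme-2* shoot replicate 3, whose TPM was the highest of that group, and 0.0114 to 0.245 over all 15 alternatives, of which 3 gave a call. The direction was the same in each of these alternatives.

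*ARR16*, a gene that the transcription factor SPEECHLESS targets in the stomatal lineage, had 2.38, 2.67 and 3.2 TPM in *dme-2* shoots, against 6.46, 4.63 and 4.13 TPM in WT shoots. The counts were 31, 35 and 40 in *dme-2* shoots and 66, 37 and 36 in WT shoots, so they overlapped where the TPM did not. By edgeR the log2 fold change was −0.47 and did not pass (standard error 0.268, adjusted p = 0.142). Limma on log2(TPM + 1) gave −0.68 with an adjusted p = 0.0154, and without WT shoot replicate 1 edgeR gave −0.09 (adjusted p = 0.804). Counts and TPM of *ARR16* do not move together, since its log2 ratio of count to TPM spanned 0.75 over the 6 shoot libraries against at most 0.438 for any other member. *ARR17* was listed at 0 TPM in all 6 shoot libraries and had 1 count in 1 *dme-2* shoot library.

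In TPM, 4 members had *dme-2* shoots entirely above WT shoots (*ARR4*, *ARR5*, *ARR6* and *ARR7*), where 25.3% of all loci that averaged 1 TPM or more did. In the other direction, 3 members (*ARR8*, *ARR9* and *ARR16*) had *dme-2* shoots entirely below WT shoots, where 28.2% of the loci did.

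**Figure D3:**
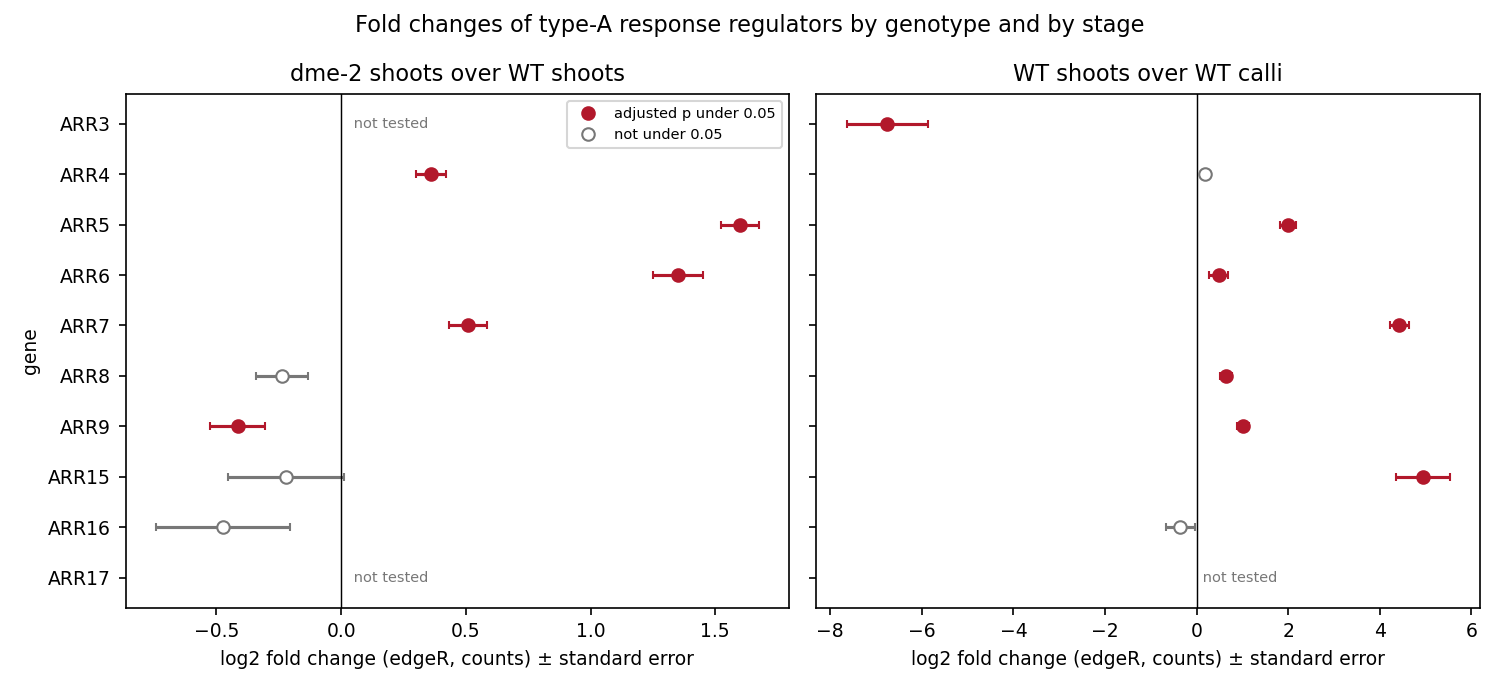
Log2 fold changes from counts (edgeR) with their standard errors are shown for *dme-2* shoots over WT shoots on the left and for WT shoots over WT calli on the right, each with its own axis. Filled points passed an adjusted p of 0.05. On the left *ARR5* (1.60) and *ARR6* (1.35) stand well above *ARR7* (0.51) and *ARR4* (0.36), and on the right *ARR15* and *ARR7* rise most, while the fitted value of *ARR3* rests on 1 count in WT shoots and is no bound.

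The tissue markers differed between the same shoot libraries. All 7 green leaf genes were lower in *dme-2* shoots by edgeR, with a median log2 fold change of −0.35, and none of them was at 0. The 6 shoot meristem genes summed to 55.7 to 62.7 TPM in *dme-2* shoots, against 36.6 to 37.6 TPM in WT shoots, and 2 of the 4 that could be tested were higher (*STM*, 1.05, and *KNAT1*, 0.56 on the log2 scale). The defining meristem genes *WUS* and *CLV3* were at or near 0, at no more than 0.98 TPM in any library. Apart from *SCR*, genes of callus and root founder tissue were at no more than 2.27 TPM in any shoot library. Of the 3 tested, 2 were lower in *dme-2* shoots, *SCR* among them (−0.31 on the log2 scale by edgeR). The part of these differences in tissue makeup in the changes of the type-A genes was not tested.

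Of the other genes of the cytokinin pathway, *CKX4* was the 1 gene that passed with a log2 fold change above 1 or below −1 in this comparison. Among the 3 receptors, *AHK3* was higher in *dme-2* shoots, at 32.02, 32.48 and 31.47 TPM against 28.14, 28.19 and 27.68 TPM in WT shoots (0.21 on the log2 scale, adjusted p = 0.000541 by edgeR), and the other 2 did not pass. Of 6 phosphotransfer genes, 5 were tested and 2 were higher, with *AHP3* highest at 0.38. Of 11 type-B response regulators, 7 were tested and 2 were higher, with *ARR2* highest at 0.32, and none was lower. Neither of the 2 type-C response regulators could be tested. Of 8 cytokinin response factors, a family of transcription factors that includes cytokinin-induced genes, 3 were higher and 1 was lower, led by *CRF6* at 0.83 and *CRF2* at −0.31.

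Of 19 genes of cytokinin synthesis, 12 were tested. *LOG7*, which encodes an enzyme that frees active cytokinin from its nucleotide form, was the 1 higher gene (0.55), and 2 were lower, with *IPT9*, a tRNA isopentenyltransferase, the lower at −0.50. The locus paired with *LOG7* lists 4 homologs, so how reads were divided among these copies is uncertain, here and in the comparisons below. Cytokinin oxidases break the hormone down. Of 7 such genes 5 were tested, 2 were higher and *CKX6* was lower at −0.41. *CKX4*, itself induced by cytokinin, stood at 10.36, 10.49 and 10.58 TPM in *dme-2* shoots, against 3.91, 3.16 and 3.3 TPM in WT shoots. Its rise of 1.66 on the log2 scale (standard error 0.12, adjusted p = 2.81e-11 by edgeR) was of the size seen for *ARR5*. Among 5 other genes known to be induced by cytokinin, a list that includes *CKX4* and *CRF2*, 2 were higher and 1 was lower.

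**Figure D4:**
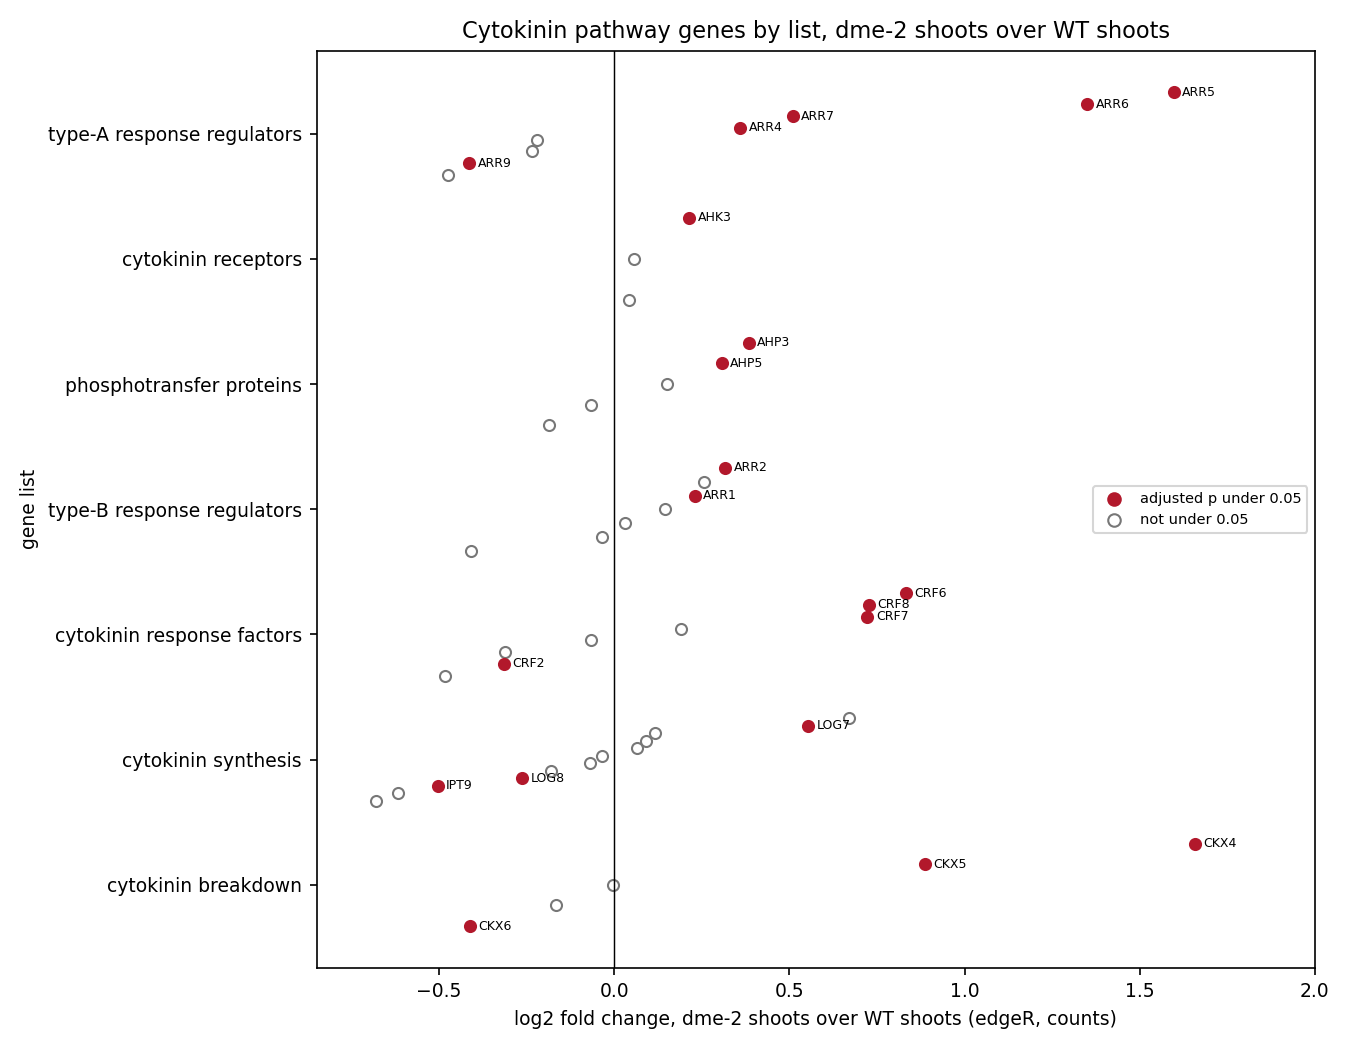
Each point is 1 tested gene of a cytokinin pathway list, placed by its log2 fold change in *dme-2* shoots over WT shoots (edgeR, counts), with filled and named points where the adjusted p was under 0.05. *ARR5* (1.60), *ARR6* (1.35) and *CKX4* (1.66) lie to the right of the other genes, and the receptor and type-B genes lie between −0.41 and 0.32.

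The second comparison asks how the type-A genes change as WT calli form shoots. By edgeR, 6 of 9 members tested were higher and 1 was lower in WT shoots than in WT calli. Of all 19616 loci, 81.8% passed, 43.4% higher and 38.4% lower, so these calls too were common. The median log2 fold change was 0.65 over the 9 members and 0.14 over all loci. The scaling matters here, since the median of all loci was 0.68 with library size only in place of TMM, and the share of calls that were higher was then 67.9% against 53.0%. The tissue markers moved with the stage, with all 7 green leaf genes higher and 8 of 9 callus and root founder genes lower in WT shoots by edgeR, and their part in these results was not tested.

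*ARR7* and *ARR15* rose most. *ARR7* had 656, 562 and 639 counts in WT shoots, against 24, 21 and 16 counts in WT calli, or 64.29, 60.07 and 56.01 TPM against 2.45, 2.04 and 1.26 TPM. This gene was far higher in every WT shoot library, with a rise of 4.43 on the log2 scale (standard error 0.213, adjusted p = 1.3e-07 by edgeR), or 21.5-fold, and 6.3% of the loci tested had a larger rise. *ARR15* had 74, 39 and 71 counts in WT shoots, against 0, 1 and 3 counts in WT calli. Relative to the library totals, its summed counts (184 against 4) gave a ratio of 48.1, with a 95% interval of 18.5 to 178 that covers counting error only. With TMM scaling, as used for *ARR7*, edgeR gave 30.6-fold with an adjusted p of 5.01e-05. Of the 4 callus counts 3 came from WT callus replicate 3, and edgeR's log2 fold change of 4.94 was 6.21 without that library and 4.48 to 5.16 without any other. *ARR7* and *ARR15*, the pair that acts in the meristem, were thus at low levels in WT calli.

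*ARR5* had 310, 348 and 411 counts in WT shoots, against 51, 94 and 49 counts in WT calli, and rose by 1.99 on the log2 scale (standard error 0.174, adjusted p = 6.44e-06 by edgeR), or 3.98-fold. *ARR6*, its copy, had 126, 140 and 152 counts in WT shoots, against 66, 97 and 52 counts in WT calli. Its rise of 0.48 was at the threshold (standard error 0.2, adjusted p = 0.0499 by edgeR), and only 8 of 15 alternatives called it, with adjusted p of 0.000826 to 0.142. The call was lost without any 1 of the WT shoot libraries (adjusted p of 0.0855, 0.142 and 0.121 without replicates 1, 2 and 3) and without WT callus replicate 3 (0.0962). In TPM *ARR6* was 9.82, 10.3 and 9.77 in WT shoots and 6.51, 3.98 and 3.05 in WT calli, with no overlap. The ratio of *ARR5* to *ARR6* TPM, 2.30 to 3.40 in WT shoots, was 0.510 to 1.29 in WT calli. Over the 9 libraries the log2 ratio of count to TPM spanned 0.839 for *ARR5* and 0.842 for *ARR6*, against 0.368 and 0.381 in shoots alone, so their stage differences depend on which table is read.

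*ARR9* had 21.57, 22.9 and 20.56 TPM in WT shoots and 8.71, 6.31 and 7.69 TPM in WT calli, and rose by 1.01 on the log2 scale (standard error 0.137, adjusted p = 0.000123 by edgeR). *ARR8*, its copy, had 18.01, 20.21 and 20.2 TPM in WT shoots and 6.33, 7.71 and 5.58 TPM in WT calli, and rose by 0.65 (standard error 0.131, adjusted p = 0.00149 by edgeR). Neither gene overlapped between the stages. For *ARR8* limma on TPM gave a rise of 1.45 (adjusted p = 5.92e-05). Its log2 ratio of count to TPM spanned 0.707 over the 9 libraries, against 0.327 in shoots alone. The size of the stage difference of *ARR8* thus also depends on which table is read. *ARR4* had 45.97, 58.8 and 54.7 TPM in WT shoots and 35.94, 29.97 and 31.25 TPM in WT calli. From counts its log2 fold change of 0.18, close to the median of all loci, did not pass (standard error 0.0997, adjusted p = 0.115 by edgeR), whereas library size only gave 0.73 (adjusted p = 0.000206). The TPM groups of *ARR4* did not overlap, as was the case for 8 members in this direction and for 56.8% of all loci.

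*ARR3* was the 1 tested member that fell, and the 1 member whose TPM lay wholly lower in WT shoots, where 28.1% of all loci did. It had 0, 1 and 0 counts in WT shoots, against 53, 32 and 21 counts in WT calli (edgeR adjusted p = 9.89e-05). With 1 count against 106 in all, WT calli exceeded WT shoots by a ratio of 101 relative to the library totals. Its 95% counting interval was 17.8 to 4043. *ARR3* was thus near 0 in WT shoots, whereas its copy *ARR4* was abundant at both stages. *ARR17* had 0 counts in WT shoots and 0, 3 and 6 in WT calli, so 6 of its 9 counts came from WT callus replicate 3. It was left out of the test for its low counts, and with the filter loosened to 1 count in total edgeR gave an adjusted p = 0.0351. The counting interval for 0 against 9 counts, relative to the library totals, allows a ratio of WT shoots to WT calli of up to 0.530. For *ARR16* the tables gave opposite signs, with −0.36 from counts by edgeR (log2 scale, standard error 0.319, adjusted p = 0.321), 0.20 with library size only and 1.16 from TPM by limma (adjusted p = 0.00849). Its counts were 66, 37 and 36 in WT shoots and 29, 49 and 51 in WT calli, while its TPM was 6.46, 4.63 and 4.13 in WT shoots and 0.76, 2.4 and 2.25 in WT calli. No direction is therefore given for *ARR16* between the stages in WT.

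Upstream genes were not uniform between the stages. Of the receptors, *AHK2* was higher (1.66) and *AHK3* lower (−1.89) in WT shoots than in WT calli, on the log2 scale by edgeR. Of 5 phosphotransfer genes tested 4 were higher, led by *AHP4* (7.61), and *AHP1* was lower (−4.89). Of 6 type-B regulators tested, 2 were higher, led by *ARR14* (4.09), and 4 were lower, led by *ARR1* (−2.22). Of 8 cytokinin response factors 4 were higher and 1 lower, with *CRF1* at 2.17 and *CRF7* at −4.00. Of 12 synthesis genes tested 6 were higher and 2 lower, with *IPT3*, a cytokinin synthase gene, at 7.39 and *LOG7* at −3.40. Of 5 oxidase genes tested 4 were higher and 1 lower, with *CKX1* at 5.94 and *CKX5* at −5.09. In the list of other cytokinin-induced genes 4 of 5 were higher and *ASL9* was lower (−2.70).

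The third comparison set *dme-2* calli against WT calli, from TPM by limma. None of the 8 members tested passed the adjusted threshold, and 1 was under an unadjusted p of 0.05. Few loci passed at all, with 24 of 17029 (0.141%) by limma, 0.0529% higher and 0.0881% lower, and 1373 under the unadjusted threshold. WT callus replicates differed more from each other in counts than shoot replicates did, with a chi-square per locus of 14.8 to 25.1 against 1.54 to 4.44. The part of this spread in the number of calls was not tested. The count test was not run on these libraries because of the mismatch between the tables.

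*ARR16* had the lowest p. Its TPM was 5.94, 4.94 and 4.7 in *dme-2* calli, against 0.76, 2.4 and 2.25 TPM in WT calli, with no overlap. The difference in log2(TPM + 1) was 1.20 (standard error 0.295), with an unadjusted p = 0.00479 and an adjusted p = 0.281 by limma. In a fit over all 12 libraries the adjusted p was 0.031, and over all 11 alternatives it ranged from 0.031 to 0.776. *ARR16* had 0 counts in each of the 3 count columns labelled *dme-2* callus, where its TPM was well above 0, so this value rests on the TPM table alone.

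*ARR6* had 2.83, 1.67 and 2.7 TPM in *dme-2* calli, against 6.51, 3.98 and 3.05 TPM in WT calli. Although the groups did not overlap, the difference of −0.67 did not pass (standard error 0.289, adjusted p = 0.629 by limma). *ARR16* was the 1 member wholly higher and *ARR6* the 1 member wholly lower in *dme-2* calli, where 7.53% and 5.75% of loci were. *ARR5* overlapped between the genotypes, at 2.7, 2.27 and 4.34 TPM in *dme-2* calli and 3.32, 5.12 and 2.23 TPM in WT calli, and differed by −0.13 (standard error 0.308, adjusted p = 0.976 by limma). *ARR4*, the most abundant member in calli, had 37.59, 25.7 and 38.5 TPM in *dme-2* and 35.94, 29.97 and 31.25 TPM in WT, a difference of 0.05 (standard error 0.183). The other tested members had differences of −0.49 (*ARR3*), 0.01 (*ARR7*), −0.09 (*ARR8*) and −0.06 (*ARR9*), each within its error or close to it. Of the 27 other cytokinin pathway genes tested in calli, limma called 0, and 3 were under an unadjusted p of 0.05. These errors do not show that the genotypes were alike, since *ARR7* alone had a standard error of 0.534.

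The fourth comparison followed the stages within *dme-2*, again from TPM by limma. Of the 8 members tested, 7 were higher and 1 was lower in *dme-2* shoots than in *dme-2* calli. Of all 18729 loci tested 72.8% passed, 49% higher and 23.8% lower, and the median difference was 1.87 over the 8 members and 0.48 over all loci on the log2(TPM + 1) scale. With TPM rescaled by the median ratio, the median of all loci was 0.06 and the share of calls that were higher was 50.9% against 67.3%. All 8 members kept their direction and their call under each of the 11 alternatives, all of which were fitted to TPM. In TPM, 7 members lay wholly higher and 1 wholly lower in *dme-2* shoots, where 52.7% and 25.8% of loci did. By limma all 7 green leaf genes (median difference 8.17) and the 3 shoot meristem genes tested were higher in *dme-2* shoots, and of 8 callus and root founder genes tested 7 were lower and 1 was higher. The part of these tissue markers in the stage results was not tested.

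*ARR7* rose by 4.94 on the log2(TPM + 1) scale (standard error 0.508, adjusted p = 0.000121 by limma), with 74.15, 96.99 and 94.19 TPM in *dme-2* shoots and 2.1, 0.31 and 4.98 TPM in *dme-2* calli. *ARR5* rose by 4.44 (standard error 0.191, limma adjusted p = 1.91e-06), and 2.74% of loci had a larger rise. *ARR6* rose by 3.15 (standard error 0.174, adjusted p = 5.88e-06 by limma). This pair was thus clearly higher in *dme-2* shoots than in *dme-2* calli for both copies. *ARR15* rose by 2.58 on this scale, with 3.35, 6.97 and 6.1 TPM in *dme-2* shoots and 0.15, 0 and 0 TPM in *dme-2* calli. *ARR8*, *ARR9* and *ARR4* rose by 1.16, 1.02 and 0.97. Among the 8 tested members *ARR16* was the one that fell, at 2.38, 2.67 and 3.2 TPM in *dme-2* shoots against 5.94, 4.94 and 4.7 TPM in *dme-2* calli (−0.72, standard error 0.155, adjusted p = 0.00474 by limma). This fall rests on TPM alone, and in WT the counts and TPM of *ARR16* gave opposite signs between the stages. *ARR3* had a mean under 1 TPM in this comparison and was not among them, at 0 TPM in each *dme-2* shoot library and 2.76, 1.16 and 1.99 TPM in *dme-2* calli. Without the filter on the mean it fell by 1.53 as well (standard error 0.2, adjusted p = 0.000616 by limma).

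Whether the genotype difference itself changed between the stages was tested as an interaction over all 12 libraries, from TPM by limma. It was higher in shoots than in calli for 2 of the 9 members tested and lower for 1, where 10.9% of all 18813 loci passed, 6.75% higher and 4.2% lower. These comparisons share libraries with the ones above. Of the 3 shoot meristem genes tested, 2 had a positive interaction by limma (*STM*, 0.96, adjusted p = 0.0036, and *KNAT1*, 0.60, adjusted p = 0.0276), whereas 0 of 7 green leaf and 0 of 8 callus and root founder genes passed. The part of the meristem markers in these results was not tested.

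*ARR6* had the highest value. The difference between *dme-2* and WT was 1.45 in shoots and −0.67 in calli on the log2(TPM + 1) scale, which gives an interaction of 2.11 (standard error 0.299, limma adjusted p = 0.00131), and 99 loci (0.526%) had a higher value. *ARR5* differed by 1.65 in shoots and −0.13 in calli, an interaction of 1.79 (standard error 0.343, limma adjusted p = 0.00753). *ARR16* went the other way, with −0.68 in shoots and 1.20 in calli and an interaction of −1.88 (standard error 0.345, adjusted p = 0.00587 by limma). All 3 calls were made under each of the 16 alternatives, all of which were fitted to TPM. The limit of the differing tables applies here to all 3 genes. Over the 9 libraries whose counts were used, the log2 ratio of count to TPM spanned 0.839 for *ARR5*, 0.842 for *ARR6* and 2.61 for *ARR16*. The TPM of *dme-2* calli could not be checked against counts.

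*ARR7* had an interaction of 0.53 that did not pass (standard error 0.588, limma adjusted p = 0.609), and *ARR4* had 0.28 (standard error 0.213, adjusted p = 0.454). A rise in *dme-2* shoots that is particular to shoots is therefore not shown for *ARR7* and *ARR4*. *ARR9* had −0.39 (standard error 0.197, limma adjusted p = 0.248), and *ARR8*, *ARR15* and *ARR3* had −0.29, −0.16 and 0.43. Among the pathway lists, synthesis genes had 2 calls in the higher and 1 in the lower direction, with *LOG7* at 1.48 and *IPT9* at −0.85, and the other cytokinin lists had none.

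**Figure D5:**
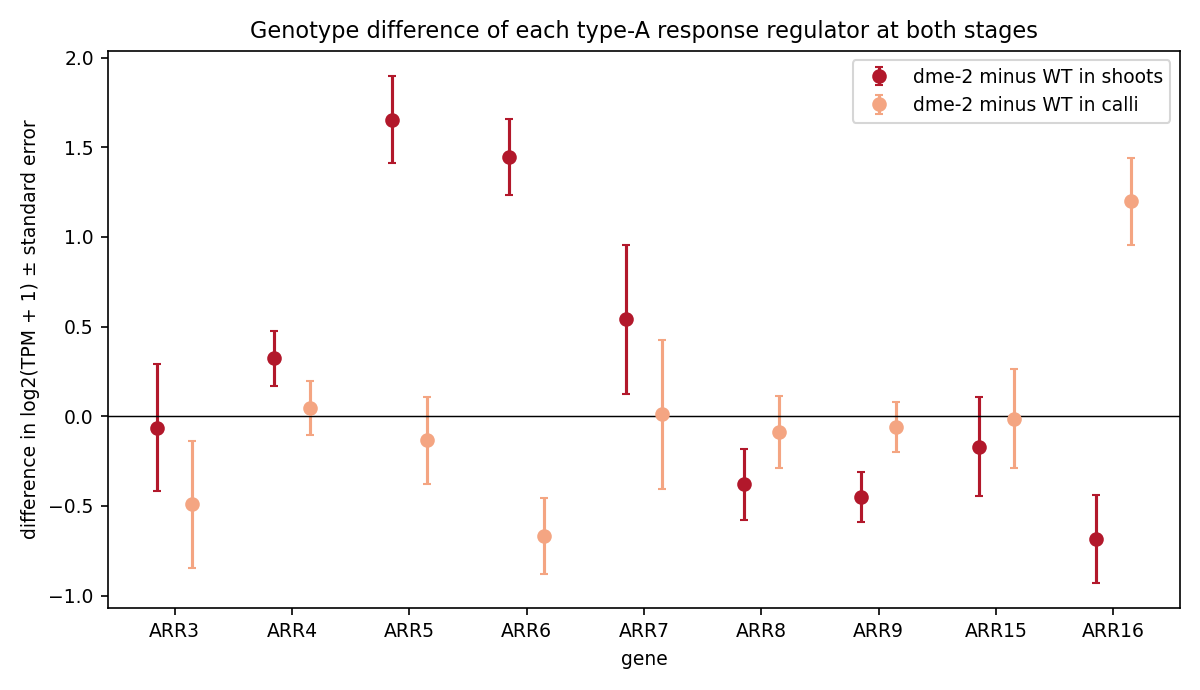
For each gene that averaged 1 TPM or more, points give the difference between *dme-2* and WT in log2(TPM + 1), in shoots on the left and in calli on the right, with standard errors from a limma fit over 12 libraries, in which *ARR5* and *ARR6* were the members that passed in shoots. *ARR5* and *ARR6* lie at 1.65 and 1.45 in shoots and at −0.13 and −0.67 in calli, and *ARR16* has the opposite order, at −0.68 in shoots and 1.20 in calli.

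Over the 12 libraries *ARR4* to *ARR9* and *ARR15* were positively correlated with each other, and 2 genes stood apart. Pearson's r of log2(TPM + 1) was 0.959 between *ARR5* and *ARR6*, 0.960 between *ARR5* and *ARR7*, and 0.919 between *ARR8* and *ARR9*. The lowest r within the group was 0.729, between *ARR6* and *ARR8*. Its members did not share 1 profile, since *ARR4* to *ARR7* lay higher and *ARR8* and *ARR9* lower in *dme-2* shoots than in WT shoots. *ARR16* had r of −0.423 to 0.251 with the other members, and *ARR3* was negative with each of them. These values describe 12 libraries in 4 groups that share the stage difference and the TPM scaling, and carry no test.

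The loci most like each member were sought among 16128 with 1 homolog and an average of 1 TPM or more. For *ARR5* they were AT5G61510 and *ATMRK1* (r = 0.991 each), and for *ARR6* the xyloglucan endotransglucosylase gene *XTH4* (0.991) and the trehalose phosphatase gene *TPPI* (0.990). *ARR7* was matched most closely, by *PME44*, a pectin methylesterase gene, and AT3G16370 (0.998 each). *ARR4* was nearest to AT4G09640 (0.981) and *ALE2* (0.978), *ARR8* to *ABCC13* (0.984) and *CBSX6* (0.983), *ARR9* to AT2G30820 (0.995) and AT3G12685 (0.990), and *ARR15* to *SNZ* (0.993) and *UMAMIT44* (0.988). *ARR3*, with its callus pattern, was nearest to AT5G24070 (0.975) and *WNK3* (0.971). *ARR16* had the weakest likeness, with *ELIP1*, an early light-induced protein gene, at 0.912 and *NUDT6* at 0.887.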

How the data were processed

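Libraries of 12 samples, made with a stranded mRNA kit, were grouped by the sample labels. Per the labels and methods, the authors used STAR 2.7.10a for mapping to the L*er* genome and RSEM 1.3.1 for quantification. The deposited counts are whole numbers per locus without normalization, and how the authors made them is not given in the sources used here. The TPM values deposited by the authors are adjusted for transcript length and scaled to one total in every library. Total counts of 12981250 to 20128757 and the spread between 3 replicates, which are biological per the methods, set the precision.

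The count test was edgeR 4.0.16 (quasi-likelihood, TMM and filterByExpr, R 4.3.3) within the 6 libraries of each comparison. This test reports no standard error. Those given with edgeR are the absolute log2 fold change divided by the square root of the F statistic. The TPM test was limma 3.58.1 (eBayes, trend) on log2(TPM + 1), which understates the change of low genes, on loci averaging 1 TPM or more. Benjamini-Hochberg adjustment ran over all loci tested, and a call is an adjusted p under 0.05. The alternatives for counts were RLE factors, scaling to library size, a loose filter (1 count in total), a strict filter (10 counts per library), DESeq2 1.42.0, limma on TPM, a fit over 9 libraries and, chosen after the data were seen, limma on TPM over 12 libraries. Those for TPM were a pseudocount of 0.1, no filter, TPM rescaled by the median ratio and a fit over 12 libraries. Both were also run with the replicate number as a block and with each library left out. The tests were checked on simulated data for *dme-2* shoots over WT shoots only, with the same spread for all loci. No comparison with calli and no interaction was simulated.

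The members, gene lists and tests were chosen with earlier results of these data known. Named were every member, *DME*, *STM*, *KNAT1*, *WUS*, *CLV3* and *SCR*. Also named were, from each pathway list, at most the largest rise and fall per comparison, and the 2 loci most like each member. *AHP5*, *ARR1*, *CRF7*, *CRF8*, *LOG8* and *CKX5* are named in the plot of pathway genes because they passed the test. Genes were named from the Col homologs in the tables and RefSeq's TAIR10.1 annotation.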

Additional observations from a re-analysis of the deposited data

Results flagged for a closer look

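The genotype difference between *dme-2* and WT in log2(TPM + 1) differed between shoots and calli for 3 members by the interaction test in limma. The difference in shoots minus that in calli was 1.79 for *ARR5*, 2.11 for *ARR6* and −1.88 for *ARR16*.

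The 3 count columns labelled *dme-2* callus, which entered no comparison, held more counts than the WT callus libraries for 7 members. The median count was 1071 for *ARR3*, 1526 for *ARR4*, 402 for *ARR5*, 274 for *ARR6*, 153 for *ARR7*, 786 for *ARR8* and 487 for *ARR9*. The highest counts of these genes in WT calli were 53, 492, 94, 97, 24, 137 and 108 in the same order of genes. *ARR16* had 0 counts in those 3 columns, where the TPM columns of the same name list 4.7 to 5.94. What those count columns hold is not known.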

How the results depend on the processing

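Each comparison was recomputed under its alternatives. Of 572 member results under alternatives, 534 kept their direction and their side of the threshold, 10 lost a call, 9 gained one and 19 changed sign. The sign changed in WT shoots over WT calli for *ARR16* (0.20 with library size only and 1.16 by limma on TPM over 6 or 12 libraries), in *dme-2* calli over WT calli for *ARR7* (−0.23 with a pseudocount of 0.1 and −0.024 with rescaled TPM), and otherwise only when a library was left out. Those ranges in calli were −0.81 to 0.0019 for *ARR3*, −0.053 to 0.23 for *ARR4*, −0.36 to 0.10 for *ARR5*, −0.51 to 0.58 for *ARR7*, −0.25 to 0.16 for *ARR8* and −0.17 to 0.034 for *ARR9*, and for the interaction −0.47 to 0.10 for *ARR15* and −0.042 to 1.05 for *ARR7*. None of these had passed the test.

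The number of members called lower in WT shoots over WT calli (1) was 2 with no filter beyond 1 count, where *ARR17* was added, and 0 with at least 10 counts in every library, which removed *ARR3*. In *dme-2* shoots over WT shoots it (1) was 2 with library size only, 3 by limma on TPM and 1 to 2 with a library left out, and 5437 of all loci were called in the fit over 9 libraries, against 10093. Limma on TPM over 12 libraries, added after seeing the data, called 2997 loci, 64.8% of them higher, with 2 members higher (against 4) and 0 lower (against 1) at an adjusted p under 0.05, and 5376 loci at an unadjusted p under 0.05. The lost calls were *ARR4* (0.32, adjusted p = 0.189), *ARR7* (0.54, 0.44) and *ARR9* (−0.45, 0.0511). In *dme-2* calli over WT calli, 24 loci were called, 13 without the filter, 417 in the fit over 12 libraries, where 1 member was called higher, and 1 to 9 with a library left out. In *dme-2* shoots over *dme-2* calli the members called lower (1) were 2 without the filter, 2 in the fit over 12 libraries and 1 to 2 with a library left out, where the added call was *ARR3* (−1.53, limma adjusted p of 0.000616 to 0.00444), whose mean had been under 1 TPM. The interaction had 2060 calls over all loci, and 1271 to 3469 with a library left out. The cause of these shifts was otherwise not tested.

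Libraries with the same replicate number showed no clear positive pairing, as the correlation of their deviations from the group means was −0.391 to 0.0258. Between *dme-2* and WT calli it was −0.272 for replicate 2 and −0.391 for replicate 3. Correlations across replicate numbers were computed only to find the best match of each replicate. That match had the same number for 0 of 3 replicates between *dme-2* and WT calli, and for 0 between *dme-2* and WT shoots. It did for 2 between WT shoots and WT calli and for 1 between *dme-2* shoots and *dme-2* calli. No test was made of a relation between libraries with different numbers. With the replicate number as a block, 1 locus was called in *dme-2* calli over WT calli and *ARR6* lost its call in WT shoots over WT calli (adjusted p = 0.0799 by edgeR). No other member changed its call under the block. Depth limits *ARR3*, *ARR15* and *ARR17*, which had at most 1, 3 and 1 counts in the libraries where they were lowest.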
